A study of Mus musculus with 6 samples.

Results

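Feeder fibroblast genes other than collagens are a list of 37 genes typical of cultured fibroblasts, followed here in mouse embryonic stem (ES) cells grown on a layer of mouse embryonic fibroblasts. Members were taken by exact gene symbol from the platform annotation, and where a gene had several probe sets the brightest on average stands for it. For 36 of the 37 genes such a probe set was found, out of 18193 genes with one in the whole series, and all 36 lay above background; Fbn1 was not analysed here. Background was set at 3.78 on the log2 scale, the 95th percentile of 80 probe sets for odorant and vomeronasal receptors, and 13378 of the 18193 genes lay above it in at least 1 group. The 36 genes had 88 probe sets in all, of which 81 were above background.

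RNA of 3 samples of Dppa4 knockout ES cells (line CI#243.12) was compared with that of 3 samples of the Dppa4 hemizygous parental line (CI#84.2), in which 1 copy of the gene is left. Each group is thus 1 line, both lines shared the presence of feeder fibroblasts, and neither an age, a passage nor a separation of ES cells from feeders is given in the labels. The targeted gene was lower on every knockout array: Dppa4 read 10.30, 10.35 and 10.45 in parental and 8.68, 8.84 and 8.68 in knockout samples, a change of -1.63 (SE 0.08, limma adjusted p = 0.000112). On this probe set, the brightest of the gene, the knockout mean of 8.73 still lay above the background level of 3.78. The source of the remaining signal was not tested. All values below are RMA expression values on the log2 scale, and all changes are knockout minus parental. Whether the replicates are separate cultures is not in the labels, and the p-values may therefore reflect technical spread alone. With 3 arrays against 3, no exact permutation test can give a two-sided p below 0.1.

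Fibroblasts build and remodel connective tissue. They secrete fibronectin, microfibril and proteoglycan components, cut matrix with metalloproteinases that tissue inhibitors hold in check, and bind growth factors in the space around them. In ES cell culture, growth-arrested embryonic fibroblasts serve as a feeder layer that supplies attachment and secreted factors, and RNA of a culture that still holds them contains their transcripts. In bulk samples, fewer fibroblasts and less RNA per fibroblast cannot be told apart, nor can a transcript's origin in fibroblasts or ES cells.

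RefSeq promoter windows (GRCm38.p6) were matched by symbol for 25 of the 36 genes and searched over the 250 bases before the start site, on both strands, for a TATA box (TATAAA), an AP-1 site (TGANTCA) and the CArG box of serum response factor; no motif overlapped another in the windows shown. A TATAAA match was found in 9 of the 25 genes (36%: Anxa1, Cav1, Igfbp4, Mmp3, Postn, S100a4, Thbs2, Twist1 and Vim), against 14.3% of 27025 genes with a window. Matches at any position were counted. The first base lay between -32 and -26 from the start site in Anxa1, Igfbp4, Postn, S100a4 and Vim. It lay at -221 in Cav1, at -126 in Thbs2 and Twist1 and at -7 in Mmp3. An AP-1 match was found in 1, Mmp3 (7.82% of all genes). A match to the strict CArG pattern, CCWWWWWWGG with W for A or T, was found in 0 (1.62% of all genes). Stretches that depart from this pattern, such as ccctatatgg and ccttgtttgg in the Acta2 window, were not counted, and Tagln had no window. These are matches of letters and were not tested. Windows are shown of 3 genes that hold a motif and stand on opposite sides of the array pattern described further on. Mmp3 and S100a4 were low, and Postn high, on the same arrays. Other genes low or high on those arrays, such as Sparc, Timp1 and Tgfbi, had no motif in their windows. A motif in all 3 thus follows from the choice. Capitals mark the motifs: TATAAA in all 3, and in Mmp3 also the AP-1 match at -46 to -40 from the start.
Mmp3 (chr9:7445572-7445821, plus strand): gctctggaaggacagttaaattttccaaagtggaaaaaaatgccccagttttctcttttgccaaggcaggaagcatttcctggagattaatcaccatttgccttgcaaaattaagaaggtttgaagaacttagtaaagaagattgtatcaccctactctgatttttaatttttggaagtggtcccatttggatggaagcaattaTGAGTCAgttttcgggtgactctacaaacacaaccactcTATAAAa
S100a4 (chr3:90603520-90603769, plus strand): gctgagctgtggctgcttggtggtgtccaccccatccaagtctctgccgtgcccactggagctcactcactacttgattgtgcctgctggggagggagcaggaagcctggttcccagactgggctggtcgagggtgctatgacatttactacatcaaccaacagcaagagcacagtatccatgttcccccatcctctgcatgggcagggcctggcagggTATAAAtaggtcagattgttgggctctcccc
Postn, the window that holds the motif of its pair of windows (chr3:54360857-54361106, plus strand): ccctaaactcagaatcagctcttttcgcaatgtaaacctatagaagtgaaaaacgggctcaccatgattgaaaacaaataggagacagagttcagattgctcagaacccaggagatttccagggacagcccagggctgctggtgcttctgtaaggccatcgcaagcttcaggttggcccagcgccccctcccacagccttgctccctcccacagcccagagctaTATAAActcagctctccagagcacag

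No fibroblast gene was called higher or lower in knockout samples. The secreted matrix genes, their proteases and inhibitors, the cytoskeletal and surface genes and the mesenchymal transcription factors all had changes between -0.06 and 0.25. Of the 36, 0 passed limma's test at an adjusted p under 0.05, and none of their 88 probe sets did. In the same fit 181 of 45037 probe sets were called (0.402%), and 0.800% of the genes above background were. At an unadjusted p under 0.05, 1 member was higher, Lum, and 0 were lower, against 5.68% of genes above background that were higher and 7.38% that were lower. Groups did not overlap for 1 member, again Lum, which was higher in knockout; of the genes above background 8.49% were higher and 10.2% lower without overlap. The direction was mostly upward by a small amount. The change was above 0 in 32 members, below 0 in Acta2, Tagln and Timp3 and 0.00 in S100a6, while 51.7% of genes above background had a change above 0. The median change was 0.09, against 0.01 over genes above background, and it moved to 0.03 without knockout replicate 1, to 0.19 without knockout replicate 2 and to 0.15 without parental replicate 2; it was 0.06 without parental replicate 1 and 0.05 without parental replicate 3. Because the members varied together between arrays, as shown further on, their signs are not independent of each other.

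The mean over the 36 members was 10.16, 10.32 and 10.20 in parental and 10.42, 10.18 and 10.38 in knockout samples, giving 10.22 ± 0.09 and 10.32 ± 0.13 (SD, n = 3). Knockout replicate 2 lay below parental replicates 2 and 3, so the groups overlapped. The 95% intervals of the single changes, not adjusted for the number of genes, had a median half-width of 0.34 and stayed within 1 on the log2 scale, a 2-fold change, for 36 of 36 members. Their outermost ends were -0.64, for Fbn2, and 0.83, for Eln.

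**Figure D1:**
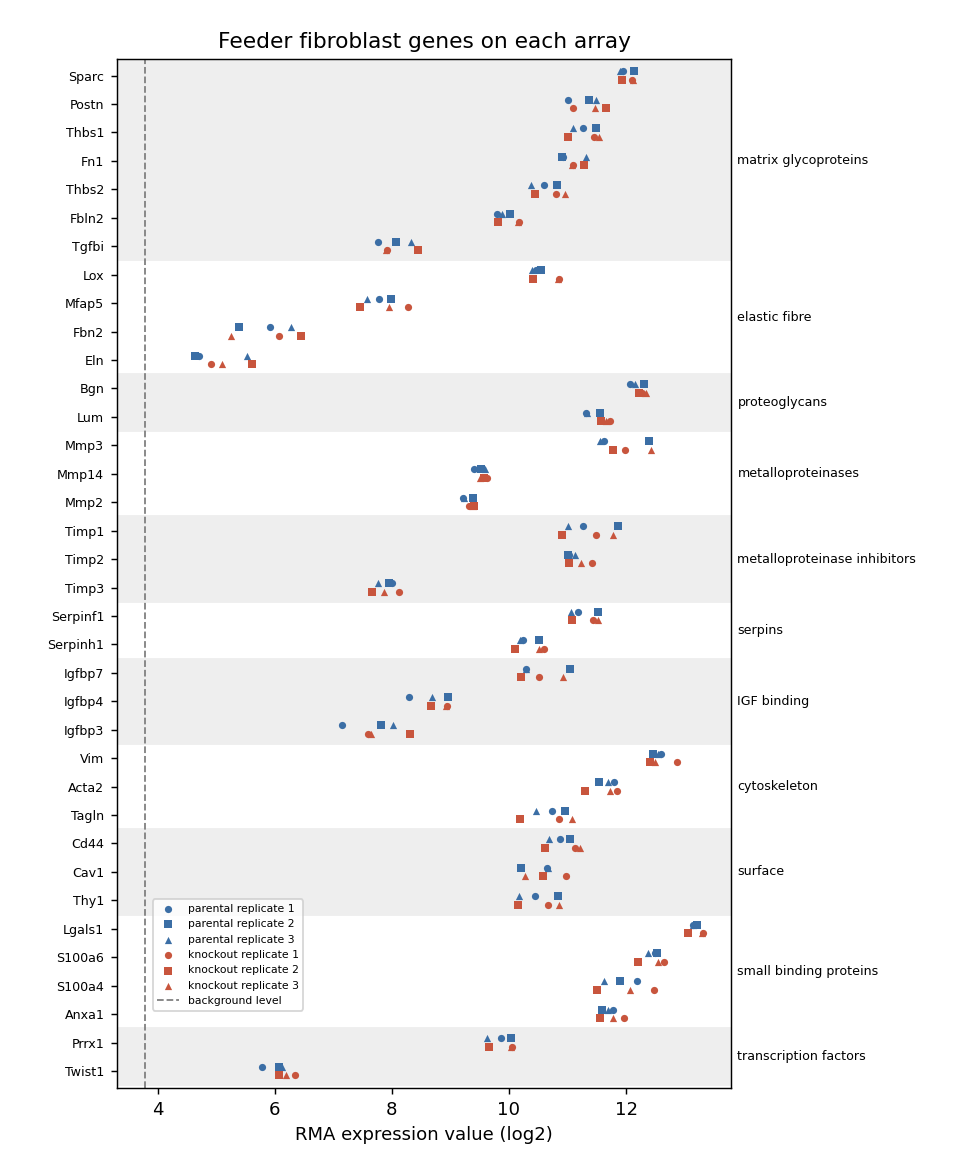
RMA value (log2, x axis) of each of the 36 genes (rows, grouped by role) on the 3 parental (blue) and 3 knockout (red) arrays, with the replicate number as the marker shape and the background level of 3.78 as a dashed line. Lum is the row in which the knockout values (11.57 to 11.72) all lie above the parental ones (11.31 to 11.56); in the other rows the groups overlap. Signals of different genes come from different probes and are not compared.

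**Figure D2:**
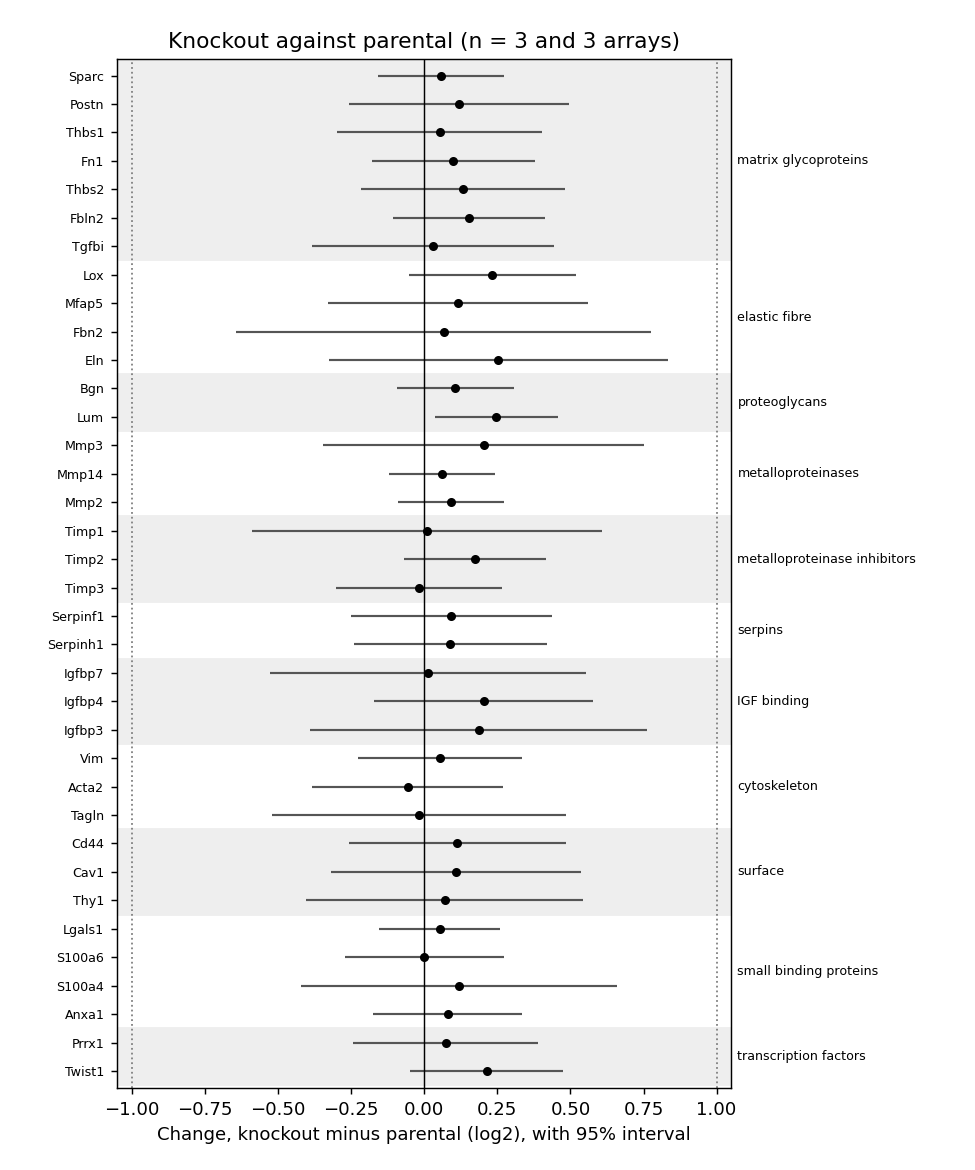
Change between knockout and parental samples (log2, x axis) for each of the 36 genes, with its 95% interval from limma as a bar and a 2-fold change in either direction as dotted lines. Every bar lies between the dotted lines, and the bar of Lum (0.04 to 0.46) is the one that does not reach 0.

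Glycoproteins of the matrix were measured for 7 of 7 genes, with changes from 0.03 to 0.15 and a median of 0.10. Sparc, a collagen-binding protein that regulates cell attachment, read 11.95, 12.14 and 11.90 in parental and 12.11, 11.93 and 12.12 in knockout samples (change 0.06, SE 0.09, limma adjusted p = 0.903). Its groups overlapped almost completely, with parental replicate 3 and knockout replicate 2 as the lower ends. Postn, which encodes periostin, an integrin ligand deposited on collagen, read 11.01, 11.36 and 11.49 against 11.10, 11.65 and 11.47 (change 0.12, SE 0.16, adjusted p = 0.877). Here the same knockout replicate 2 was the highest of all. Fn1, the gene of fibronectin, on which cells attach through integrins, was 10.93, 10.91 and 11.31 against 11.10, 11.28 and 11.07 (change 0.10, adjusted p = 0.859). Parental replicate 3 stood 0.26 above its group's mean. The thrombospondin genes Thbs1 (0.05) and Thbs2 (0.13), whose proteins activate latent TGF-beta or modulate matrix assembly, had adjusted p of 0.951 and 0.850. Tgfbi, a TGF-beta-induced adhesion protein, changed by 0.03 and Fbln2, a fibulin that links fibronectin and elastic fibres, by 0.15 (adjusted p = 0.979 and 0.750).

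Genes of the elastic fibre spread widely within groups. Fibrillin microfibrils carry elastin, and lysyl oxidase crosslinks elastin and collagen. Lox, the lysyl oxidase, read 10.46, 10.54 and 10.40 in parental and 10.86, 10.41 and 10.83 in knockout samples (change 0.23, SE 0.12, limma adjusted p = 0.620). Knockout replicates 1 and 3 lay above all parental samples, and knockout replicate 2 lay among them. Eln, the elastin gene, read 4.70, 4.64 and 5.52 against 4.91, 5.61 and 5.10 (change 0.25, SE 0.25, adjusted p = 0.823), and its largest values came from parental replicate 3 and knockout replicate 2. Fbn2, the fibrillin of developing tissue, had the largest spread within groups of all members (pooled SD 0.53), at 5.92, 5.39 and 6.28 against 6.08, 6.45 and 5.26 (change 0.07, adjusted p = 0.972). Its highest values were again on parental replicate 3 and knockout replicate 2. Mfap5, a microfibril-associated glycoprotein, ran the other way, at 7.78, 7.98 and 7.58 against 8.27, 7.46 and 7.96 (change 0.12, SE 0.19, adjusted p = 0.903), so that these arrays were the lowest of their groups.

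The small leucine-rich proteoglycans, which bind collagen fibrils, held the member with the lowest p. Lum, encoding lumican, a regulator of fibril diameter, read 11.31, 11.56 and 11.33 in parental and 11.72, 11.57 and 11.65 in knockout samples. Every knockout value was above every parental value, the nearest being 11.56 on parental replicate 2 and 11.57 on knockout replicate 2. The change was 0.25 (SE 0.09, unadjusted p = 0.0270, adjusted p = 0.449, limma), a 1.19-fold difference that did not pass. Leaving out parental replicate 1 or 3, or knockout replicate 1 or 3, also ended the unadjusted call. Bgn, encoding biglycan, read 12.06, 12.31 and 12.15 against 12.28, 12.22 and 12.34 (change 0.11, SE 0.09, adjusted p = 0.778), with overlapping groups.

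Matrix proteases and their inhibitors showed both the tightest and some of the widest values. Mmp2, a gelatinase, changed by 0.09 and had the smallest pooled SD of the members, 0.07. Mmp14, a membrane-bound protease that activates Mmp2, read 9.41, 9.52 and 9.59 in parental and 9.62, 9.57 and 9.51 in knockout samples (change 0.06, SE 0.08, limma adjusted p = 0.872), with the parental and knockout values interleaved. Mmp3, or stromelysin 1, a secreted protease of fibroblasts, read 11.63, 12.40 and 11.55 against 11.98, 11.78 and 12.43 (change 0.20, SE 0.24, adjusted p = 0.855). Its single high arrays were parental replicate 2 and knockout replicate 3, and the groups overlapped. Timp1, a secreted inhibitor of metalloproteinases, was high on the same arrays, at 11.26, 11.87 and 11.01 against 11.49, 10.90 and 11.78 (change 0.01, SE 0.26, adjusted p = 0.992). Timp2 read 11.02, 11.01 and 11.13 against 11.42, 11.03 and 11.23 (change 0.17, SE 0.11, adjusted p = 0.686), with knockout replicate 2 inside the parental range. Timp3, the inhibitor that is bound to matrix, changed by -0.02 (adjusted p = 0.982).

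The serpins and the insulin-like growth factor (IGF) binding proteins likewise did not pass. Serpinf1, which encodes the anti-angiogenic factor PEDF, read 11.18, 11.52 and 11.06 in parental and 11.44, 11.08 and 11.52 in knockout samples (change 0.09, limma adjusted p = 0.899). Serpinh1, the collagen chaperone Hsp47 of the endoplasmic reticulum, read 10.24, 10.51 and 10.19 against 10.60, 10.10 and 10.51 (change 0.09, adjusted p = 0.898). Both were lowest on parental replicate 3 and, within the knockout group, on replicate 2. Igfbp7, an IGF binding protein with a low affinity, read 10.29, 11.04 and 10.29 against 10.52, 10.21 and 10.93 (change 0.01, SE 0.24, adjusted p = 0.992). Parental replicate 2 and knockout replicate 3 were its high arrays. Igfbp4, which inhibits IGF action, read 8.29, 8.96 and 8.69 against 8.95, 8.67 and 8.93 (change 0.20, SE 0.16, adjusted p = 0.772), with 1 low parental array, replicate 1. Igfbp3, the main IGF carrier of serum, read 7.15, 7.82 and 8.02 against 7.59, 8.31 and 7.65 (change 0.19, adjusted p = 0.875), highest on parental replicate 3 and knockout replicate 2.

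Cytoskeletal and surface genes of fibroblasts had changes between -0.06 and 0.11. Vim, the intermediate filament gene of mesenchymal cells, read 12.60, 12.46 and 12.55 in parental and 12.87, 12.41 and 12.49 in knockout samples (change 0.05, SE 0.12, limma adjusted p = 0.936). Knockout replicate 1 alone lay above the parental values. Acta2, the smooth muscle actin of contractile fibroblasts, read 11.80, 11.54 and 11.70 against 11.85, 11.30 and 11.72 (change -0.06, SE 0.14, adjusted p = 0.944), and Tagln, the actin-binding protein transgelin, read 10.74, 10.96 and 10.47 against 10.85, 10.19 and 11.08 (change -0.02, SE 0.22, adjusted p = 0.988). Knockout replicate 2 was the lowest of the 6 arrays for both. Cd44, the hyaluronan receptor, read 10.88, 11.05 and 10.69 against 11.12, 10.62 and 11.22 (change 0.11, adjusted p = 0.884), and knockout replicates 1 and 3 lay above the parental values. Cav1, the coat protein of caveolae, read 10.65, 10.21 and 10.66 against 10.98, 10.59 and 10.28 (change 0.11, adjusted p = 0.905), with parental replicate 2 and knockout replicate 3 low. Thy1, a surface glycoprotein used as a fibroblast marker, changed by 0.07 (SE 0.21, adjusted p = 0.953).

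Among the small calcium-, lipid- and sugar-binding proteins, changes ran from 0.00 to 0.12. Lgals1, the galactoside-binding galectin 1, read 13.14, 13.21 and 13.15 in parental and 13.32, 13.05 and 13.29 in knockout samples (change 0.05, SE 0.09, limma adjusted p = 0.905). S100a6, calcyclin, read 12.50, 12.53 and 12.37 against 12.65, 12.21 and 12.54, and its group means were equal (change 0.00, SE 0.12). In both, knockout replicate 2 was the lowest of the 6 arrays. S100a4, known as fibroblast-specific protein 1, and Anxa1, the annexin that binds phospholipids, changed by 0.12 and 0.08 (adjusted p = 0.921 and 0.879). The mesenchymal transcription factors were measured too. Twist1, a basic helix-loop-helix factor, read 5.78, 6.08 and 6.12 against 6.35, 6.08 and 6.19 (change 0.21, SE 0.11, adjusted p = 0.621). Prrx1, a paired-related homeobox factor of limb and craniofacial mesenchyme, read 9.87, 10.03 and 9.63 against 10.06, 9.66 and 10.03 (change 0.07, SE 0.14, adjusted p = 0.917). Groups overlapped for both factors.

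Several probe sets could be compared for part of the list. Of 24 members with at least 2 probe sets above background, 19 had changes of 1 sign and 5 of both signs: Cd44, Fn1, Mmp14, Sparc and Timp3. For Fn1 the second probe set, 1437218_at, gave -0.26 where 1426642_at gave 0.10. An unadjusted p under 0.05 was found for 4 of the 88 probe sets, those of Lum (1423607_at), Tgfbi (1437463_x_at, change 0.35, adjusted p = 0.481) and, below background, Cd44 (1443265_at, -0.32) and Lox (1437903_at, 0.23).

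The spread between arrays of the same group was wide. The pooled SD within groups had a median of 0.23 over the 36 members, from 0.07 for Mmp2 to 0.53 for Fbn2, against 0.11 over genes above background. For 31 of 36 members it was above that general median. Among genes with a mean level of 10 or more the median was 0.07 over 1069 genes and 0.23 over the 24 members in that range. The 14 ES cell markers had a median of 0.08, and the 9 feeder collagens and 56 other fibroblast genes above background had 0.21 and 0.23. These are descriptions without a test.

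**Figure D3:**
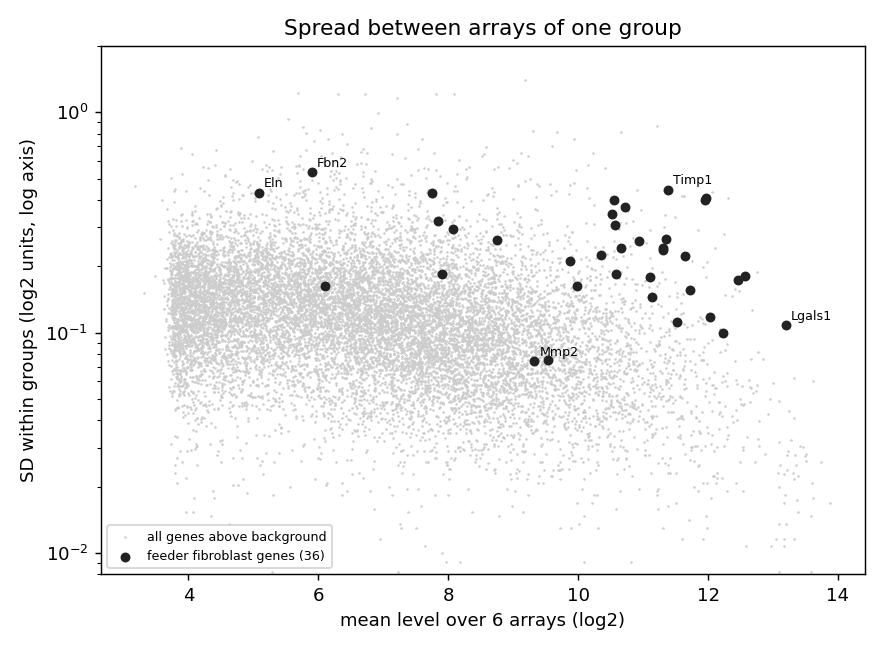
SD within groups (log2 units, pooled over parental and knockout, log axis) against mean level over the 6 arrays (log2) for the 36 genes (black) and all genes above background (grey; 5 of them lie below the axis). The black points sit mostly high for their level, from 0.07 for Mmp2 to 0.53 for Fbn2, with a median of 0.23.

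The members' deviations differed between arrays. Each value was set against the mean of its own group. On knockout replicate 2, 8 of 36 members lay above their group mean (22.2%, median deviation -0.21), against 49.4% of genes above background. On parental replicate 3 it was 14 of 36 (38.9%, median -0.05), against 44.2%. On parental replicate 2 it was 27 of 36, against 53.3%. On knockout replicate 1 it was also 27 of 36, against 47.7%, and on knockout replicate 3 it was 26 of 36, against 50.5%. Most members were thus high on those 3 arrays. Parental replicate 1 had 11 of 36 above, against 49.2%.

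For 16 members parental replicate 3 was the lowest parental array, and for 16 of these 16 knockout replicate 2 was the lowest knockout array. They were Sparc, Thbs1, Thbs2, Lox, Mfap5, Timp1, Timp3, Mmp3, Serpinf1, Serpinh1, Tagln, Thy1, Cd44, S100a4, S100a6 and Prrx1. Igfbp7 tied on parental replicates 1 and 3 and is counted as lowest on neither. Over genes above background that share was 53.4% of 4865, and over genes with a mean level of 10 or more 62.0% of 324. Parental replicate 3 was lowest for 16 of 36 members, against 4865 of 13378 genes above background. Knockout replicate 2 was lowest for 27 of 36 members (75%), against 4817 of those 13378 genes. It was lowest for 9 of 10 members with parental replicate 3 neither lowest nor highest, and for 2 of 10 with parental replicate 3 highest. A low knockout replicate 2 was thus not particular to the 16. Parental replicate 2 was the highest parental array for 21 members, and for 20 of these knockout replicate 2 was the lowest knockout array. That share was 52.3% of 5210 genes above background and 59.7% of 370 at a level of 10 or more. A member can be in both sets. Over all 36 members parental replicate 1, not 3, had the lowest parental mean (10.16 against 10.20). The mean of the 16 genes was 10.69, 10.91 and 10.49 in parental and 10.94, 10.45 and 10.96 in knockout samples. Thy1 illustrates the set with 10.44, 10.84 and 10.18 against 10.66, 10.16 and 10.85, and S100a4 with 12.19, 11.89 and 11.62 against 12.48, 11.51 and 12.07. In each case knockout replicate 2 was the lowest of the 6 arrays and parental replicate 3 the next.

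The reverse pattern was seen in 6 members that had parental replicate 3 and knockout replicate 2 as the highest array of their group: Fn1, Postn, Tgfbi, Eln, Fbn2 and Igfbp3. Their mean was 7.91, 8.03 and 8.49 in parental and 8.12, 8.62 and 8.08 in knockout samples. Tgfbi, for example, read 7.76, 8.08 and 8.33 against 7.92, 8.44 and 7.90. In all, 10 members had parental replicate 3 as the highest parental array, and in 6 of them knockout replicate 2 was the highest knockout array, against 54.0% of 3784 genes above background and 75.9% of 349 genes at a level of 10 or more. This share of 60% is near or below those of genes at large and is no result about the members. The remaining 14 members followed neither order on both arrays. The 16 and the 6 genes were sorted by their values on these arrays, so the listing describes the values and was not tested. The sorting used the brightest probe set of each gene. The other probe sets of Thbs1, Thbs2 and Serpinf1 kept the order, but not all did. Sparc 1458204_at was highest in its group on both arrays, and Timp2 1460287_at, of the remaining members, was lowest on both. Fn1 1437218_at had its highest knockout value on replicate 3.

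**Figure D4:**
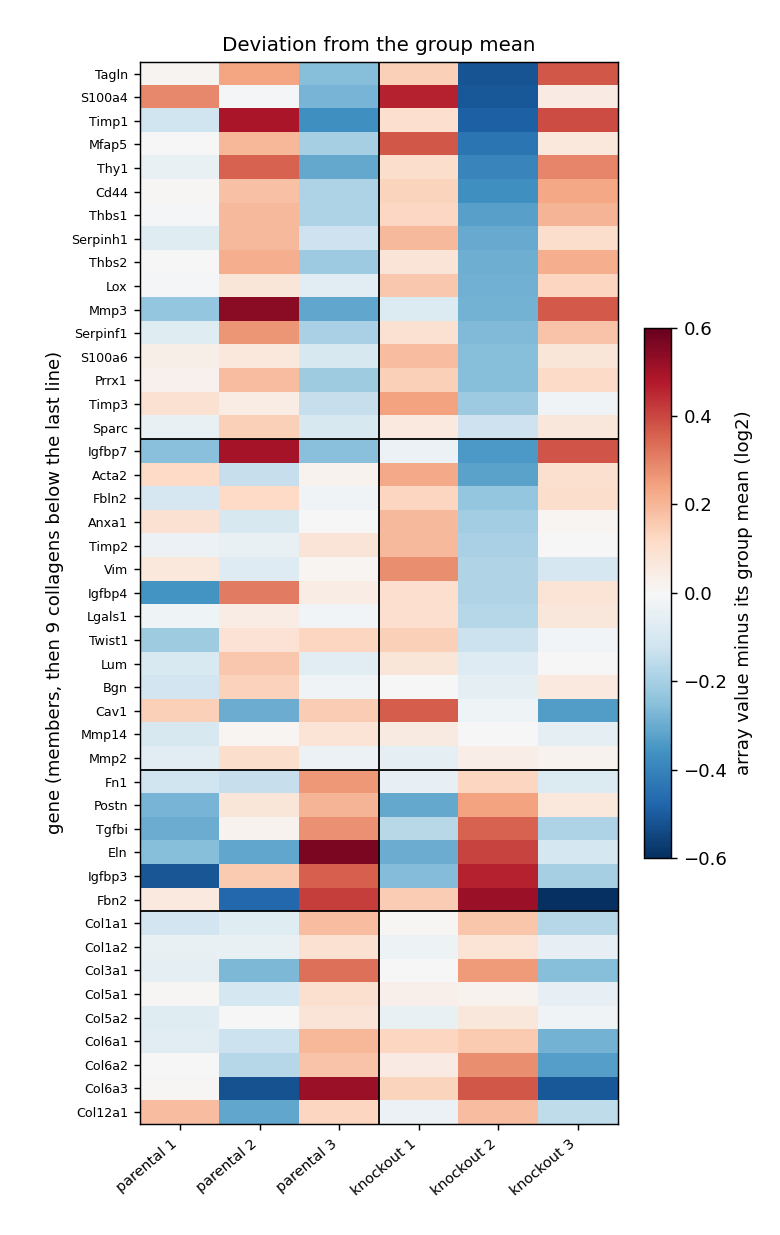
Deviation of each array from its group mean (log2, colour) for the 36 genes in rows, ordered as the 16 that were lowest, the 14 others and the 6 that were highest on parental replicate 3 and knockout replicate 2, followed by 9 feeder collagens. Parental 3 and knockout 2 share blue cells in the upper block and red cells in the lower blocks, where the collagens follow Fn1, Postn and Fbn2; colours are paler in the middle block.

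Collagens measured on the same arrays lay with the smaller set. Of 9 feeder collagen genes, 9 were above their group mean on parental replicate 3, against 44.2% of genes above background. On knockout replicate 2 it was also 9, against 49.4%. The collagen mean was 10.30, 10.14 and 10.52 in parental and 10.46, 10.61 and 10.23 in knockout samples. Parental replicate 3 was the highest parental array for 8 of the 9, against 28.3% of genes above background. Knockout replicate 2 was the highest knockout array for 8 of the 9, against 35.5%. Of 349 genes at a level of 10 or more with parental replicate 3 highest, 75.9% also had knockout replicate 2 highest. This order was thus also found in genes other than collagens. On the arrays where collagens were lowest, parental replicate 2 and knockout replicate 3, Timp1, Mmp3 and Igfbp7 had their highest values. On parental replicate 2, 27 of the 36 members lay above their group mean, against 53.3% of genes above background. On knockout replicate 3 it was 26 of 36, against 50.5%. Of the 9 collagens 0 lay above their group mean on either array.

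Deviations of parental replicate 3 and knockout replicate 2, which share no sample and were paired for their likeness, correlated at r = 0.907 across the 36 members, at 0.506 across 13378 genes above background and at 0.750 across the 1069 genes at a level of 10 or more. For parental replicate 2 with knockout replicate 3 the values were 0.837, 0.560 and 0.872, and for parental replicate 1 with knockout replicate 1 they were 0.814, 0.211 and 0.376. These 3 pairs were picked from the 9 possible ones as those with the highest correlation; over the members the other 6 ran from -0.80 to -0.04. Genes on an array share hybridisation and normalization and are not independent replicates, the 3 deviations of a group sum to 0, and no p is given. The array pattern was thus also present in genes at large, and what the arrays have in common, such as a culture, a feeder preparation or a labelling run, is not given in the labels and was not tested.

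**Figure D5:**
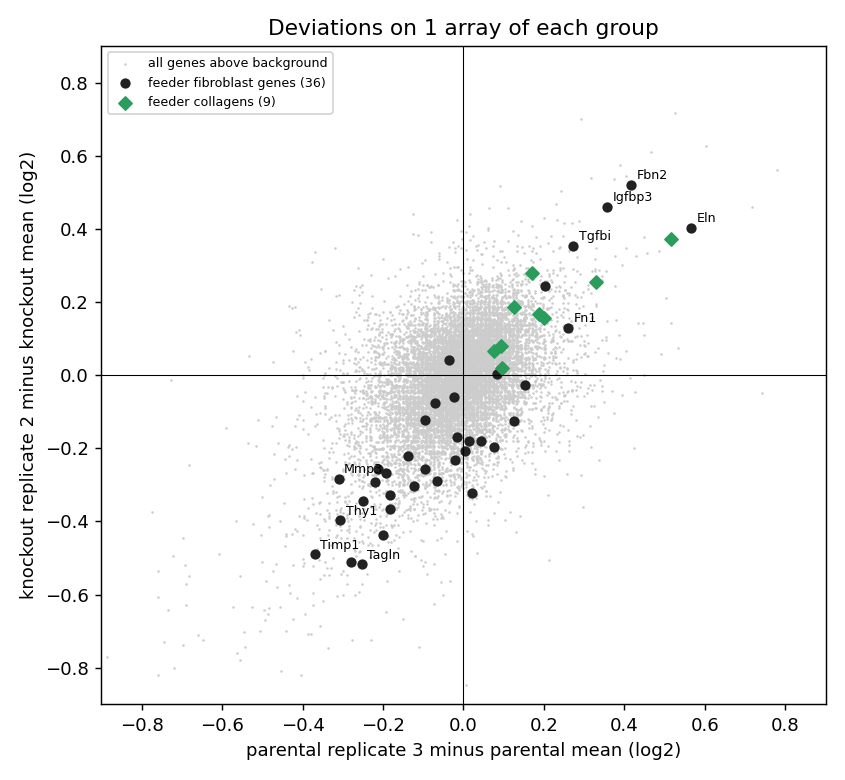
Deviation of knockout replicate 2 from the knockout mean (y axis, log2) against that of parental replicate 3 from the parental mean (x axis, log2) for the 36 genes (black), 9 feeder collagens (green) and all genes above background (grey; 16 lie outside the axes). Timp1, Tagln and Thy1 sit at the lower left, Eln, Fbn2 and Igfbp3 at the upper right with the collagens.

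Other genes of fibroblasts and their matrix were read from a further list. Of 64 symbols 58 were measured, 0 passed limma's test, 1 was higher at an unadjusted p under 0.05 (Pdgfrb, change 0.27, adjusted p = 0.439) and 0 were lower. Of genes above background 5.68% were higher and 7.38% lower at that limma p. Groups did not overlap for 3, all higher in knockout and including Plau, which was below background. Of genes above background 8.49% were higher and 10.2% lower without overlap. Changes were above 0 in 47 and below 0 in 11, with a median of 0.11, while 51.7% of genes above background had a change above 0. Ccl2, a chemokine, read 12.06, 12.32 and 11.83 in parental and 12.35, 11.88 and 12.21 in knockout samples (change 0.08, adjusted p = 0.923). Dcn, encoding the proteoglycan decorin, read 12.16, 12.40 and 11.43 against 12.35, 11.74 and 12.33 (change 0.14, adjusted p = 0.910). Both were lowest on parental replicate 3 and knockout replicate 2, as were 23 of the 24 genes of this list that had their lowest parental value on parental replicate 3. The share was 53.4% over genes above background and 62.0% over those at a level of 10 or more. In this list too a low knockout replicate 2 was frequent, as it was the lowest knockout array for 37 of the 56 genes above background.

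Markers of other cell types were read beside these values. The mean of 14 ES cell markers was 10.57, 10.61 and 10.56 in parental and 10.44, 10.52 and 10.49 in knockout samples, so every knockout array was lower, by a difference of means of -0.10. The largest single changes were those of Nanog (-0.49) and Tfcp2l1 (-0.32), and 5 of the 14 changes were above 0, among them Tdgf1 (0.13) and Dppa5a (0.08). Of the 14, 0 were called by limma, and 3 were lower at an unadjusted p under 0.05 (Nanog, Tfcp2l1 and Sall4), against 7.38% of genes above background. Without overlap between groups 6 were lower and 1 was higher, against 10.2% and 8.49%. The part of these changes in the fibroblast values was not tested. Of other types, 4 of 6 haematopoietic, 2 of 5 endothelial, 6 of 7 endoderm, 2 of 5 skeletal muscle and 3 of 4 keratinocyte markers lay above background. Those not above it in either group were Ptprc, Itgam, Cdh5, Emcn, Tie1, Myod1, Myog, Myf5, Krt14 and Gata4. Others that mark the same cell types were above it, among them Lyz2 (7.70), Csf1r (5.68) and Adgre1 (4.24) of macrophages, Foxa2 (4.74), Gata6 (4.38) and Sox17 (4.05) of endoderm and Krt5 (4.04) of keratinocytes, given as means over the 6 arrays. Their part in the fibroblast values was not tested. Among all of these 1 was called, the endothelial receptor gene Tek, which fell from 5.98 ± 0.18 to 4.42 ± 0.29 (SD, n = 3; change -1.56, limma adjusted p = 0.00469).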

How the data were processed

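RNA of 6 samples, isolated on columns, was measured on Affymetrix arrays, according to the labels. The authors deposited log2 expression values per probe set, normalized by RMA per the submitters' processing notes. For the software, its version and the chip definition, nothing is stated in what was used here. The log2 scale was read from the values (2.12 to 13.98). RMA makes the arrays' distributions alike, which would hide a change common to most transcripts. Array medians were 4.21 to 4.25, and the number of arrays limits the precision.

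After 64 control probe sets were left out, 45037 were fitted with limma 3.58.1 in R 4.3.3 (lmFit, eBayes, two-sided, no covariate, Benjamini-Hochberg over all of them, threshold 0.05). The annotation gave 1 gene for 34945 probe sets, several for 932 and none for 9160. Probe sets with several genes or none were part of the fit and its adjustment but were not used to stand for a gene. The procedure was tested on simulated data. Noise there was drawn independently for each probe set, unlike the deviations shared between genes described above. The simulation therefore does not check the p-values for such data.

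The members, lists and tests were chosen with earlier results of these data known. Values on every array are given for members with an unadjusted p under 0.05, the 2 highest signals of their role, the 5 largest changes or the 3 largest within-group SDs; Fn1, Igfbp3, Tagln, Tgfbi, Thy1 and S100a4 were added after their values were seen. Of the list of other fibroblast genes, up to 4 called genes with the largest change or, with none called, the 2 with the highest signal are named; Pdgfrb and the called marker Tek were added after their values were seen. Alternatives were another normalization or centring, a block on replicate number, limma's trend option with a robust prior, other probe set choices and leaving out each array.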

Additional observations from a re-analysis of the deposited data

How the results depend on the processing

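Under each of the 13 alternatives run, 0 of the 36 fibroblast genes were called by limma. The lowest adjusted p belonged to Lum, or to Lox without knockout replicate 2 and Eln without parental replicate 3, and ranged from 0.212 without knockout replicate 2 to 0.754 without parental replicate 1. At an unadjusted p under 0.05 the alternatives gave 0 to 5 members. The median change stayed above 0, between 0.03 and 0.19, and the difference of the member means between 0.05 and 0.17. Over all probe sets the count of 181 became 88 with the replicate block, 312 with the intensity trend and robust prior, and 70 to 112 without 1 array; the other settings over probe sets gave 162 to 193, and the average of probe sets per gene gave 151 of 18193 genes. The pairing by replicate number was not borne out: deviations of same-numbered arrays correlated at 0.112, -0.364 and -0.287 over all probe sets, and of the 3 parental arrays only replicate 1 correlated best with its own number. The block left Lum at an adjusted p of 0.709. Dppa4 and Tek, which fell, stayed called under each of the 13 alternatives.

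When probe sets were averaged per gene, signs turned for Fn1 (-0.08), Sparc (-0.017), Timp3 (0.02) and Cd44 (-0.073). Leaving out 1 array turned the sign of 20 uncalled changes, which then ranged as follows: Acta2 -0.17 to 0.11, Anxa1 -0.017 to 0.18, Cav1 -0.072 to 0.28, Cd44 -0.0033 to 0.30, Fbn2 -0.19 to 0.40, Igfbp3 -0.07 to 0.37, Igfbp7 -0.18 to 0.26, Mfap5 -0.07 to 0.34, Postn -0.018 to 0.27, Prrx1 -0.033 to 0.20, S100a4 -0.11 to 0.38, Serpinf1 -0.0033 to 0.23, Serpinh1 -0.0083 to 0.24, Tagln -0.20 to 0.24, Tgfbi -0.15 to 0.17, Thbs1 -0.048 to 0.22, Thy1 -0.083 to 0.27, Timp1 -0.19 to 0.26, Timp3 -0.14 to 0.093 and Vim -0.087 to 0.14. Why the signs turned was not tested, and the fits without 1 array rest on fewer arrays.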
